A study of Drosophila melanogaster with 2 samples.

Results

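Of the 7326 peaks in the authors' thresholded list for the CG6276 fusion protein, 1118 had a summit in intergenic DNA away from promoters, 15.3% of the list (95% Wilson interval 14.5 to 16.1). A summit is the base of highest signal within a peak. It counted as intergenic when it lay inside no gene of Ensembl release 115 (BDGP6.54) and more than 500 bp from every annotated transcript start, with transposable elements not counted as genes. The other summits comprised 3628 in introns, 2373 within 500 bp of a start and 207 in exons. The peaks came from chromatin immunoprecipitation and sequencing (ChIP-seq) of whole Drosophila melanogaster prepupae of both sexes, from a line (strain CG6276-GFP) that stably expressed CG6276 with GFP at its C-terminus, and the immunoprecipitation used an antibody against GFP. The labels give an age of 72 days, which is at odds with the prepupal stage, so its unit is in doubt and the age is not used here. This single group had 2 biological replicates, numbered 2 and 4, and no control library was analysed here. No test across samples was therefore possible, and each interval below covers the counting of peaks only, since peaks of the same libraries are not independent replicates. Whole animals mix all tissues, so the tissue in which any 1 region was bound is not known from these data. How deeply the libraries were sequenced is not known here.

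Intergenic DNA of the fly holds many enhancers, silencers and insulators, stretches that regulate a gene from a distance and are bound by sequence-specific transcription factors. In the prepupa, a pulse of the steroid hormone ecdysone drives the replacement of larval tissues by adult ones, and many ecdysone-responsive and patterning genes are controlled by such distant elements. Short sequences shared by bound regions are often read as candidate recognition sites, although a letter match alone does not show that a protein binds there.

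The sequences below show the letters under the strongest intergenic summits, because a 5-base core, CAGTG, was more frequent in these windows than in the DNA beside them. Each is the plus strand of 251 bases centred on a summit, read from the Release 6 (dm6) RefSeq genome, in lower case with CAGTG and its reverse complement CACTG in capitals. The first 8 windows belong to the summits ranked 1, 3, 5 and 7 to 11 by signal among the intergenic ones, each named by the gene of the nearest start, and no sequence is shown for ranks 2, 4 and 6. CG31668 (chr2L:2202300-2202550), lncRNA:CR44713 (chr3L:11246114-11246364) and CG43131 (chr3R:5113152-5113402) are followed by Atf3 (chrX:1277044-1277294), CG43245 (chr3L:10776450-10776700) and ds (chr2L:715429-715679). A pair of windows beside lncRNA:CR45643 close the set (chr3R:16221752-16222002 and chr3R:16224384-16224634).
CG31668: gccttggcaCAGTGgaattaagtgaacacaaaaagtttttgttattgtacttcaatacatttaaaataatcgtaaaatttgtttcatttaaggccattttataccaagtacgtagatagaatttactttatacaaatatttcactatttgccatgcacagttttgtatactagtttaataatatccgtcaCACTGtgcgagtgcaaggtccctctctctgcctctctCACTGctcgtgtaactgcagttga
lncRNA:CR44713: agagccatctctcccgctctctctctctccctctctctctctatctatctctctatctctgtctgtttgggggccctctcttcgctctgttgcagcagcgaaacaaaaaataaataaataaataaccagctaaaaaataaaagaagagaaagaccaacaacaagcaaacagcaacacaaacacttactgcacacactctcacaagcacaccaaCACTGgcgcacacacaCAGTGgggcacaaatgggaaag
CG43131: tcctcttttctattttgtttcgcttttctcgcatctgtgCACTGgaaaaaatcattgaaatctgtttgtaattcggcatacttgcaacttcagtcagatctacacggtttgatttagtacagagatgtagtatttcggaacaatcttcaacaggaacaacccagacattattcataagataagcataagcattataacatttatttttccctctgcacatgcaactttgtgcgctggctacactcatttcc
Atf3: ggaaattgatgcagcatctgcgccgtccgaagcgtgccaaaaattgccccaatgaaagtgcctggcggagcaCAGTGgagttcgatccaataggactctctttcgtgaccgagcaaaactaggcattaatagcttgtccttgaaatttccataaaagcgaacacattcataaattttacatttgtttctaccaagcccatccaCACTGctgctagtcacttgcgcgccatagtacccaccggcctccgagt
CG43245: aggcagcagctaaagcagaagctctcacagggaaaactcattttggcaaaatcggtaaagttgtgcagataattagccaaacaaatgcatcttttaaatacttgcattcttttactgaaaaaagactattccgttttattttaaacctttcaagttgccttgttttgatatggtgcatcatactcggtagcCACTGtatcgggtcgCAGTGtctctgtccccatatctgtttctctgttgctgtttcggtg
ds: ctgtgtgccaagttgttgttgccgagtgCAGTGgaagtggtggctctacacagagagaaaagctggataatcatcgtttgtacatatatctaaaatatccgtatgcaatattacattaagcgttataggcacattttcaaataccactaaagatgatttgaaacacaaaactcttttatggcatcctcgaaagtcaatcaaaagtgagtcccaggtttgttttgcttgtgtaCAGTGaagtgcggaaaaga
lncRNA:CR45643 upstream: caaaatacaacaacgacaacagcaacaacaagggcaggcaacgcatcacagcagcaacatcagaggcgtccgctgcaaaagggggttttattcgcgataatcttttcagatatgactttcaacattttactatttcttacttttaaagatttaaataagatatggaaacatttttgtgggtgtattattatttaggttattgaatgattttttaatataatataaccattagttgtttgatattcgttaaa
lncRNA:CR45643 downstream: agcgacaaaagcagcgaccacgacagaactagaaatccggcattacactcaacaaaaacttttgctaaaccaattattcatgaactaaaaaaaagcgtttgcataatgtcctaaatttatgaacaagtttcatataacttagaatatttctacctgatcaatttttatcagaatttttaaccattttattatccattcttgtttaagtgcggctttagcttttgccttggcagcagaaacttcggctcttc
The core stood in 6 of these 8 windows, and both windows beside lncRNA:CR45643 held none. In the CG31668 window 3 cores lay 114 bp to the left and 67 and 104 bp to the right of the summit, with A plus T making up 65.3% of the bases. The middle of that window, like that of the ds window with cores 95 bp to the left and 109 bp to the right, held no core.

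A further set shows the arrangement described at the end of the results, in which the core points away from the summit on both sides: CACTG to the left and CAGTG to the right, each 40 to 125 bp from the summit. These 4 are the strongest such windows for which sequence is shown, beside COX7AL2 (chr2L:2199216-2199466), CG13676 (chr3L:8153270-8153520), lncRNA:CR42794 (chrX:5696402-5696652) and lncRNA:CR44723 (chr3L:11325755-11326005).
COX7AL2: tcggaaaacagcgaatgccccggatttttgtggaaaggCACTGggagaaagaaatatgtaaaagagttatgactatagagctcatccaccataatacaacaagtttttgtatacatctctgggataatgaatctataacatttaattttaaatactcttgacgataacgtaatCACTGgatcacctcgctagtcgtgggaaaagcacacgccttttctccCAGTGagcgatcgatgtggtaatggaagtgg
CG13676: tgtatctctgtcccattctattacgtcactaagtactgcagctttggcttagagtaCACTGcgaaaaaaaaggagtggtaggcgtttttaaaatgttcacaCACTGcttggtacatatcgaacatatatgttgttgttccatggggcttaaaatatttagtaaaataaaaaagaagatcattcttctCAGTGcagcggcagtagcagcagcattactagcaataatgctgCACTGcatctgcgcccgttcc
lncRNA:CR42794: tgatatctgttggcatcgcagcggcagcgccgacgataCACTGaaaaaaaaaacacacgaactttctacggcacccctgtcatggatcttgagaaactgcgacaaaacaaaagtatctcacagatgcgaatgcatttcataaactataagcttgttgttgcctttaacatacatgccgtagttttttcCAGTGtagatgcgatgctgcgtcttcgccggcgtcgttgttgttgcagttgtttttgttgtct
lncRNA:CR44723: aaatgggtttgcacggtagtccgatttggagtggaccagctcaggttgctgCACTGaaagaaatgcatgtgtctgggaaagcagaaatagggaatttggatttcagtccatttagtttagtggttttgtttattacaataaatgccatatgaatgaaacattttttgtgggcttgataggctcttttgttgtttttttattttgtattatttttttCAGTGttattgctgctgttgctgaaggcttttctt
In the lncRNA:CR42794 window the 2 cores stood 85 bp to the left and 65 bp to the right of the summit, and in the lncRNA:CR44723 window 72 and 93 bp away. The COX7AL2 window carried an additional core 50 bp to the right on the minus strand, and the CG13676 window additional cores 22 bp to the left and 107 bp to the right. These windows were picked because they carry the arrangement, so they illustrate it and add nothing to its count.

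The strongest intergenic summit lay on chromosome 2L at 2202425, in a gene-free stretch of 5808 bp between COX7AL2, named for a cytochrome c oxidase subunit, and CG31668. Its nearest start was that of CG31668, 3741 bp away, and it lay downstream of that start, past the gene's 3′ end. Its signal value, the score that the authors' peak caller gave each peak, was 3140.1 in the thresholded list, and the matched peaks had 1681 in replicate 2 and 1473 in replicate 4. It ranked 12 among all thresholded peaks, 12 in the replicate 2 list and 16 in the replicate 4 list. The same short stretch held another pair of the 20 strongest intergenic summits, 3365 and 1429 bp upstream of the COX7AL2 start, with signal values of 1244 and 1213. For the first of these, replicate 2 had a matched peak of 645 and replicate 4 had none by the rule used here, although a replicate 4 summit lay 20 bp away.

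Of the 5 summits next in signal, 3 lay on chromosome 2R, with genes of Polycomb repression at various distances. That at 13035276, with a signal value of 2410.1 (1166 in replicate 2 and 1237 in replicate 4), stood in the 36783 bp between Su(z)2, a relative of the Polycomb protein Psc, and CG13323, whose start was 11980 bp away. Su(z)2 was farther off than CG13323, since the stretch began beside it at 13007912. The summit at 12959404 (1399, with 730.4 and 675) lay between CG13321 and Psc, which encodes a subunit of Polycomb repressive complex 1. The one at 22678378 (1826, with 1062 and 764) lay between lncRNA:CR44761 and Ppa, an F-box protein gene, and its nearest protein-coding start, 7613 bp away, was that of RYBP, which encodes another Polycomb-associated protein. In all 3 cases the replicate summits lay within 24 bp of the thresholded summit. These 3 ranked 2, 6 and 4 among the intergenic summits. No list of Polycomb genes was counted here, and the grouping was chosen after these values were seen.

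Other regulators bordered the summits ranked 3 to 20. The summit 714 bp upstream of lncRNA:CR44713 on 3L had a signal value of 2353 (1160.1 and 1203) and lay 6068 bp upstream of scyl, which encodes an inhibitor of growth signalling through TOR. The summit beside ds, which encodes the large cadherin Dachsous, stood 571 bp upstream of the start with 1322 (623 and 704). The one upstream of Atf3, a bZIP transcription factor gene, stood 1885 bp away on X with 1336 (682.5 and 662). Both replicate lists placed a matched peak at each of these.

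The start of lncRNA:CR45643 on 3R was the nearest one for 4 intergenic summits. Of these, 3 were among the 20 strongest, at 1518 and 897 bp upstream and 909 bp downstream. Their signal values were 1302, 1198 and 1284, and the nearest protein-coding start in each case was that of tara, which encodes a regulator of transcription and cell cycle progression. Near ct, a homeodomain gene that sets external sense organ fate, the strongest summit lay 3745 bp upstream on X with 1240.0 (621 in replicate 2 and 612 in replicate 4). The summit 553 bp upstream of stv, a co-chaperone gene, had 1275, and the one 859 bp upstream of Atet, an ABC transporter gene, had 1256.5. Of the 20 strongest intergenic summits, the COX7AL2 summit named above was the only one without a matched peak in both replicate lists.

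The other 5 of the 20 each lay at least 3621 bp from their nearest start. One with 1327 (544 in replicate 2 and 782 in replicate 4) stood 4650 bp downstream of the start of CG43245. The summit nearest to spel1, which encodes a mismatch repair protein, stood 8062 bp downstream of that start with 1233. That nearest to CG43131 stood 4099 bp upstream with 1464. Between Eaf6, a histone acetyltransferase subunit gene, and Blimp-1, an ecdysone-induced transcriptional repressor gene, a summit of 1197 lay 3621 bp upstream of Eaf6. The weakest of the 20, with 1134, lay between betaTub60D, a beta-tubulin gene, and lncRNA:CR44810.

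Over all 1118 intergenic summits the signal value ranged from 139 to 3140.1 with a median of 249.8 (quartiles 175 and 381). Intronic summits had a median of 245 and promoter summits one of 268. The groups differed more at the top: 59 intergenic summits, 5.28% of them, were among the strongest 732 peaks of the list (interval 4.11 to 6.75), against 7.39% of intronic summits (6.58 to 8.28) and 16.3% of promoter summits (14.9 to 17.8). The median intergenic peak was 376 bp wide and the median intronic and promoter peaks 450.0 bp.

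Intergenic peaks passed the authors' threshold less often than intronic and promoter peaks, and about as often as the few exonic ones. Of all 30000 peaks in the pooled list, 24.4% were in the thresholded list, against 16.7% of the 6706 intergenic ones (15.8 to 17.6). The difference from intronic peaks was -6.09 percentage points (95% Newcombe interval -7.18 to -4.98) and that from promoter peaks -22.2 points (-23.7 to -20.7). Of the 1252 exonic pooled peaks 16.5% passed (14.6 to 18.7). Since the thresholded list held exactly the 7326 pooled peaks of highest signal, this pass share is a statement about signal and not a separate measure of reproducibility. Among intergenic pooled peaks it fell with distance from a start, from 25.6% at 500 to 1000 bp (22.6 to 28.8) to 11.5% at 10000 to 20000 bp (9.52 to 13.9), and was 12.8% (28 of 219) beyond that.

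Both libraries held most of the intergenic summits. The thresholded list was itself made from these 2 libraries, so a high share of matches is no separate measure of reproducibility. A replicate peak sharing at least 50% of both lengths was found for 917 (82.0%) in replicate 2 and for 894 (79.96%) in replicate 4. Both lists matched 792 (70.8%, 68.1 to 73.4), only replicate 2 matched 125, only replicate 4 matched 102, and neither matched 99. With 80% of both lengths required instead, both lists matched 41.2%. The median replicate peak was 436 bp wide, and of the 237 intergenic peaks under 218 bp wide, 87 had a match in replicate 2, 63 in replicate 4 and 6 in both. When a replicate summit within 100 bp was accepted instead, an alternative chosen after seeing the data, both lists matched 1004 (89.8%, 87.9 to 91.4). By the overlap rule the share in both lists differed from that of intronic summits by -3.39 points (-6.46 to -0.421), and by the summit rule by -1.40 points (-3.51 to 0.499). Of the 792 summits matched in both lists, 521 had matched peaks among the strongest 7326 of both. Some neighbouring summits shared a matched replicate peak, so the matched peaks are not all distinct.

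**Figure D1:**
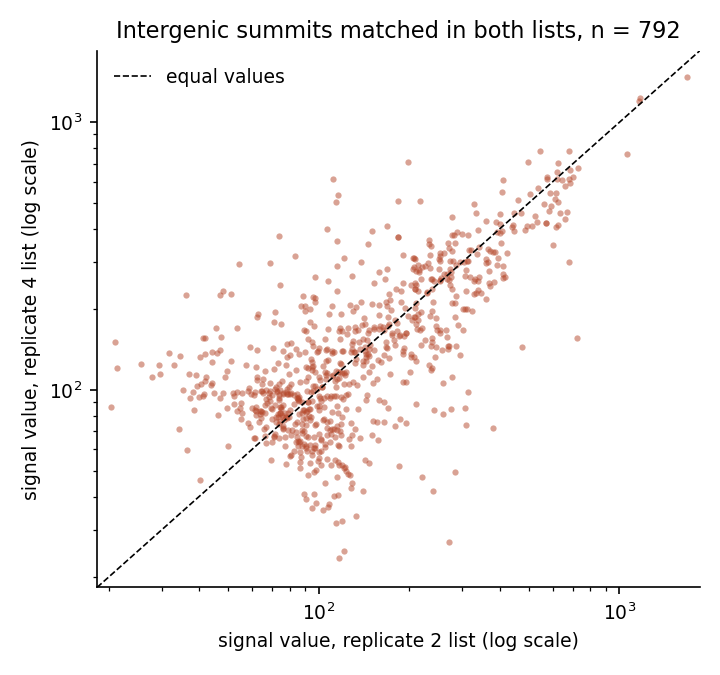
Signal values of the 792 intergenic summits matched in both replicate lists, with replicate 2 on the horizontal axis and replicate 4 on the vertical axis (both log scales, 1 point per summit, dashed line at equal values). Strong summits such as that of CG31668 (1681 and 1473) lie near the line, and weaker ones scatter to both sides of it. Summits that share a matched replicate peak repeat its value.

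Intergenic summits crowded towards gene starts. Their median distance to the nearest start was 2714 bp (quartiles 1308 and 5549.5). It was 4336 bp when only protein-coding genes and starts were used to classify summits. That setting has other summits and other eligible sequence, whose median base was not computed. With all genes and starts, the median base of the eligible sequence lay 5942 bp from a start. This sequence is all DNA outside genes and over 500 bp from starts. Per Mb of such sequence there were 67.3 summits at 500 to 1000 bp (95% exact Poisson interval 58.0 to 77.5), 55.7 at 1000 to 2000 bp (49.0 to 62.9) and 40.2 at 2000 to 5000 bp (36.2 to 44.6). The density then fell through 26.6 at 5000 to 10000 bp (23 to 30.7) and 18.8 at 10000 to 20000 bp (15.2 to 23.03) to 3.53 beyond 20000 bp (2.34 to 5.10). Either replicate alone, taken at its strongest 7326 peaks, fell in the same order, from 60.9 to 2.90 in replicate 2 and from 72.9 to 4.03 in replicate 4. Transposable elements covered 16.7% of the farthest sequence and 4.12% of the nearest, and how far reads could be placed there was not tested.

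**Figure D2:**
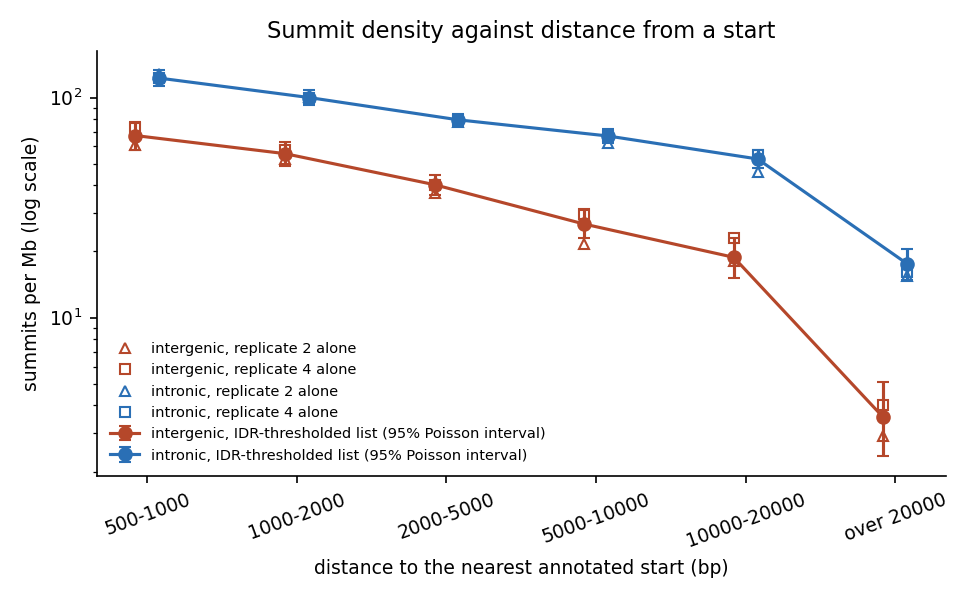
Summits per Mb of sequence of their own class (vertical axis, log scale) by distance to the nearest annotated start in bp, for intergenic and intronic summits. Filled points with 95% Poisson bars are the thresholded list and open symbols the strongest 7326 peaks of each replicate. In every distance class the intergenic density was below the intronic one, for example 67.3 against 123 per Mb at 500 to 1000 bp.

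Introns at the same distances held more summits per Mb. Intronic density was 123 (113 to 133) at 500 to 1000 bp, 79.3 (74.5 to 84.2) at 2000 to 5000 bp and 17.6 (14.9 to 20.6) beyond 20000 bp. In these 3 classes and the 3 between them, the intronic interval lay wholly above the intergenic one. The fall with distance was thus present in both kinds of sequence. Over all distances, the 36.5 Mb of eligible intergenic DNA, 27.2% of the 6 arms, held 30.7 summits per Mb (28.9 to 32.5), the introns 68.7 (66.5 to 70.9) and the promoter zones 131 (126 to 136).

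The farthest summits stood in gene deserts of 3L. The stretch of 75047 bp between NijA, which encodes the membrane protein Ninjurin A, and CG43245 held 4 of the 5 summits farthest from any start, between 31935 and 36661 bp upstream of CG43245. Their signal values ran from 155 to 687. The farthest 2 of them were peaks of 112 bp and had no matched replicate peak by overlap, while replicate summits lay within 21 bp of each. The remaining 1 of the 5 lay 33895 bp downstream of the start of vvl, a POU homeodomain gene, with 228 in the thresholded list, 62.9 in replicate 2 and 192 in replicate 4.

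At the other end, the summits just past the 500 bp limit were 501 bp from lncRNA:CR43485 (signal value 140.4), 506 bp from CG6959 (246) and 509 bp from CG31676 (543). The gene-free summits just short of it were 500 bp from CG8785 (170), 498 bp from CG17896 (1336) and 498 bp from E(spl)m2-BFM (419), the last a Bearded-family gene of the Notch pathway. They fall on either side of a limit that was set by hand.

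Intergenic summits lay upstream of the nearest start more often than the sequence itself did. Of the 1118, 724 were upstream, 64.8% (61.9 to 67.5), against 58.5% of eligible bases and 59.02% of the other 5588 intergenic pooled peaks (57.7 to 60.3). With a promoter limit of 1000 bp the upstream share was 61.5%. Summits lay nearer to starts than eligible bases did, and the part of this in the upstream share was not tested. The nearest start belonged to a protein-coding gene for 724 summits, to a non-coding RNA gene for 353, to a tRNA gene for 34, to a pseudogene for 6 and to a snoRNA gene for 1. The non-coding RNA share was 31.6% (28.9 to 34.4), and 25.9% of eligible bases were nearest to such a start. By the strands of the genes to each side, divergent stretches, where both genes point away, held 44.8 summits per Mb (40.1 to 49.9), tandem stretches 29.4 (27.0 to 32.0) and convergent ones 26.4 (23.2 to 29.9). Replicate 2 alone gave 42.3, 26.3 and 22.9, and replicate 4 alone 46.5, 30.9 and 29.8. These densities were not matched for distance to a start either.

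Few intergenic summits lay inside annotated transposable elements. These elements covered 10.8% of the eligible bases but held 3 of the 1118 summits, 0.268% (0.0913 to 0.786). The other intergenic pooled peaks had 19 of 5588 there, 0.340% (0.218 to 0.530). All 3 elements were INE-1 copies, near ed (signal value 1116), CG12483 (149.7) and Ugt37A1 (146, unmatched in replicate 2). Reads from repeated sequence are hard to place at 1 site, and how the authors handled them is not stated here.

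The chromosome arms differed in how many intergenic summits they carried. Arm 3L held 390, or 43.0 per Mb of eligible sequence (38.8 to 47.5), against 32.5 on 2L (28.3 to 37.1), 32.1 on 3R (28.2 to 36.3), 21.1 on 2R (17.9 to 24.7) and 20.1 on X (16.5 to 24.3). No intergenic summit lay in the 0.245 Mb of chromosome 4, with an upper bound of 15.04 per Mb from the exact Poisson interval. Both replicates alone put 3L highest (38.1 per Mb in replicate 2 and 44.3 in replicate 4) and X lowest of the larger arms (18.6 and 20.3). The low density on X was not seen in introns, where X had the highest value, 82.2 per Mb (76.7 to 88.0), against 61.2 to 70.0 on the other larger arms. The density of intergenic summits within 5000 bp of a start was 74.96 per Mb on 3L (66.2 to 84.6) and 35.6 on X (28.4 to 44.0). In that range 2L had 44.5 (37.8 to 51.9), 3R 47.0 (40.5 to 54.3) and 2R 40.1 (33.1 to 48.1). Outside the gene-free stretches that held 4 or more summits, 3L had 26.08 per Mb (22.74 to 29.77), near the 26.06 of 2L and 24.46 of 3R. There 2R had 17.96 and X 19.08. Those stretches were set apart by their own number of summits, so leaving them out must lower an arm that holds many of them. What part of the high 3L value they make up was therefore not tested.

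**Figure D3:**
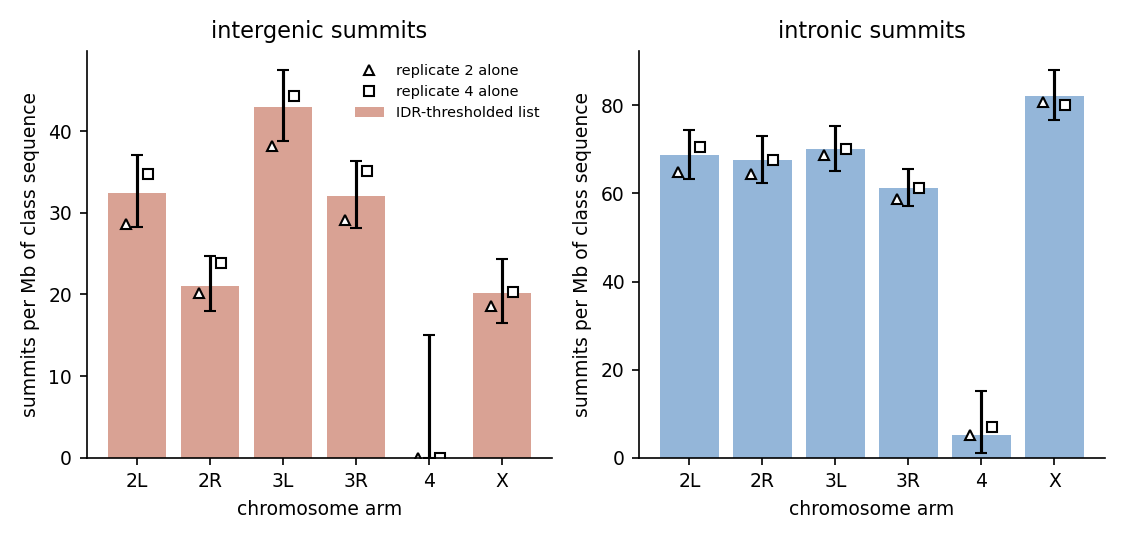
Intergenic (left) and intronic (right) summits per Mb of sequence of that class on each chromosome arm. Bars with 95% Poisson intervals are the thresholded list, and triangles and squares are replicates 2 and 4 alone. Intergenic density is highest on 3L at 43.0 and low on X at 20.1, while intronic density is highest on X at 82.2.

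Many intergenic summits shared a gene-free stretch with others. Of the 6528 gene-free stretches with eligible sequence, 625 (9.57%) held an intergenic summit. In 390 of them there was 1, in 181 there were 2 or 3, and 54 held 4 or more, together 314 summits or 28.1% of all. Of those 314, 171 were on 3L, 64 on 3R, 47 on 2L, 26 on 2R and 6 on X. Neighbouring summits of 1 stretch stood a median of 1737 bp apart (quartiles 740.0 and 3832, 493 spacings), against a median peak width of 376 bp.

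The stretch with the most summits held 17 in 32.96 kb of 3L, from 770463 to 803426, between tRNA:Ile-TAT-1-2 and CG13898, or 522 per Mb of eligible sequence. The nearest protein-coding gene to its left was hng3 (737680 to 755489), which ends well before the stretch begins. The span of hng3 overlaps emc, which encodes an inhibitor of proneural bHLH proteins. The 17 signal values ran from 142 to 792 with a median of 258, and the summits were spread over 31.4 kb. The highest stood 17.34 kb from the left end of the stretch, with 792 in the thresholded list, 361 in replicate 2 and 429 in replicate 4. The next stood at 32.45 kb with 588 (330.4 and 260.0), and the third at 1.07 kb with 463 (210 and 246). Both replicate lists matched 14 of the 17, and the strongest 7326 peaks of replicates 2 and 4 placed 16 and 15 intergenic summits in the same stretch.

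**Figure D4:**
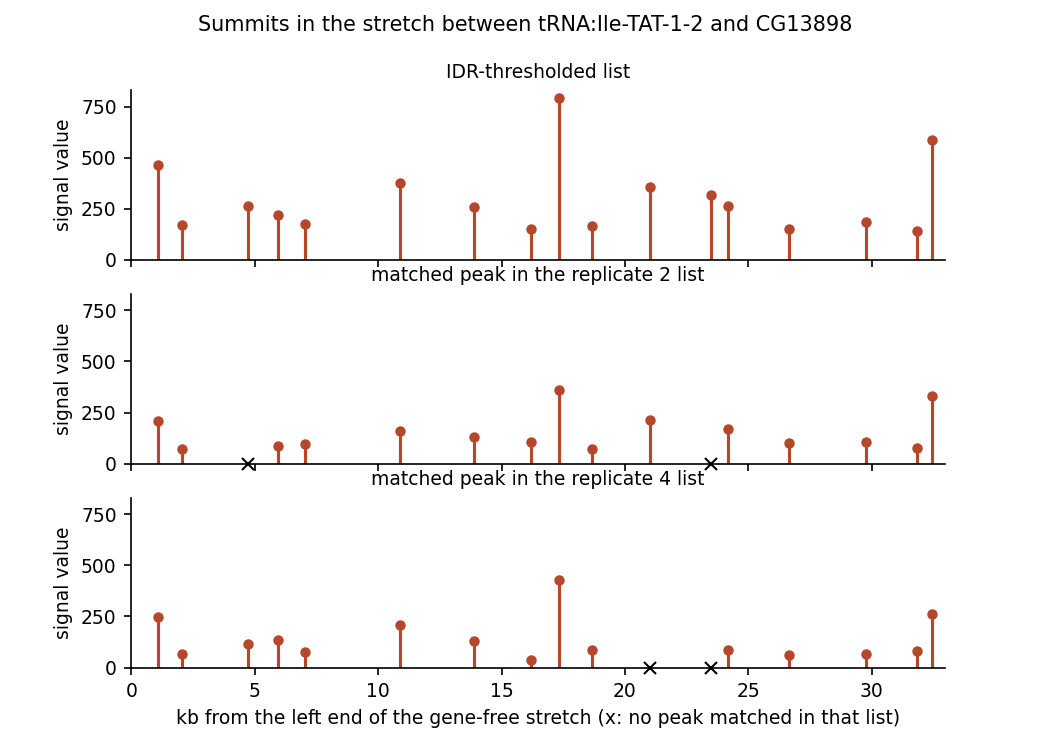
Signal values (vertical axis) of the 17 intergenic summits along the 32.96 kb stretch between tRNA:Ile-TAT-1-2 and CG13898 (horizontal axis, kb from its left end), in the thresholded list and for the matched peak in each replicate list. A cross marks a summit with no matched peak in that list. The highest summit, at 17.34 kb, is the highest in all 3 panels.

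The stretches next in number of summits lay beside developmental genes as well as genes of unknown role. Between NijA and CG43245, 13 summits had signal values from 155 to 926 (median 359) over 58.2 kb. Between Tollo, which encodes a Toll-family receptor, and Best4, a bestrophin chloride channel gene, 11 summits (144 to 728) were packed into 23.1 kb beside Tollo. Then came 3 stretches with 10 summits each, between CG17154 and vers, between Aps and lncRNA:CR45248, and, on 2R, between lncRNA:CR45229 and CG16894. Replicates 2 and 4 alone placed 13 and 13 summits in the NijA stretch, 11 and 10 in the Tollo stretch, 7 and 10 beside CG17154, 12 and 10 beside Aps, and 5 and 9 beside CG16894. The last of these was thus the least even between the libraries.

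The stretch with the most summits was not the densest. Between soti and cv-c on 3R, 7 summits lay in 9.98 kb, or 738 per Mb of eligible sequence. Between Ids and lncRNA:CR45737, next to sty, which encodes the receptor tyrosine kinase antagonist Sprouty, 8 summits lay in 14.0 kb, or 592 per Mb. Stretches with 8 summits each also lay between CG15167 and ham, a PRDM transcription factor gene, and between Qsox2 and Eip93F. All 8 of the Eip93F stretch (signal values 145 to 391) had a matched peak in both replicate lists.

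Genes were counted by their nearest intergenic summit, so a gene that shares its upstream stretch with another may be missed. Of 13945 protein-coding genes, 462 (3.31%) had the start nearest to an intergenic summit, and 775 (5.56%) bounded a stretch that held one. With protein-coding genes and starts only, 703 genes had the start nearest to a summit. Per Mb of eligible sequence nearest to a protein-coding start there were 29.6 summits, the value against which the lists below are set. Density fell with distance from a start, and neither this value nor the lists were matched for distance, so its part in their differences was not tested. A list with longer upstream sequence has more room for summits, so each list is given by genes and by density.

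Ecdysone response genes, which carry the hormone pulses of this stage, had summits at 4 of 28 genes (14.3%), with 10 summits in 0.0590 Mb, or 169 per Mb (81.3 to 312). Of these 10, 5 stood nearest to Eip93F, the transcription factor gene that directs the switch to adult development, the strongest 17643 bp upstream with 391 in the thresholded list, 277 in replicate 2 and 112 in replicate 4. Blimp-1 had 2, the stronger 4306 bp upstream with 397 in the thresholded list and 358 in replicate 4. Neither Blimp-1 summit had a matched peak in replicate 2, whose nearest summit to the stronger one lay 8691 bp away. Eip78C, a nuclear receptor gene, had a summit of 684 at 2148 bp upstream, with 299 in replicate 2. It had no matched peak by overlap in replicate 4, although a replicate 4 summit lay 57 bp away. The fourth gene was Hr38, another nuclear receptor gene. The count rests largely on Eip93F, and the other 24 genes of the list had no intergenic summit nearest to them.

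Secreted signals and their receptors had summits at 11 of 48 genes (22.9%), with 19 summits, or 98.3 per Mb (59.2 to 154). The strongest were at daw, an activin-like ligand gene (691 at 2564 bp upstream, with 392 and 294), at ptc, the Hedgehog receptor gene (683 at 5259 bp upstream, with 415 and 265), and at fz, a Wnt and planar polarity receptor gene (648 at 1744 bp upstream, with 353 in replicate 2 and no matched peak in replicate 4). Replicate 4 nevertheless had a summit 69 bp from that of fz. The ligands wg, hh, Wnt4, Wnt10, Pvf2, ths and upd3 and the receptor htl were the rest. Both ends of these pathways, ligands and receptors, were thus among the genes with summits.

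Homeodomain and other patterning transcription factors had summits at 14 of 70 genes (20%), but they also had much intergenic sequence, and their density was 33.9 per Mb (20.7 to 52.3), near that of all genes. The strongest after ct was at bin, a FoxF gene of the visceral mesoderm (700.1, 1308 bp upstream). Next came srp, a GATA factor gene of fat body and blood cells (417, with 191 in replicate 4). The srp summit had no matched peak by overlap in replicate 2, although a replicate 2 summit lay 27 bp away. Of 14 Hox genes and cofactors, hth alone had an intergenic summit (217, at 15304 bp upstream), a density of 20.5 per Mb (0.518 to 114). Of the proneural and neuronal fate factors, pdm3 (297) and Dr (284) did, 2 of 23 (8.70%), with 28.5 per Mb (5.88 to 83.3). That of pdm3 was unmatched by overlap in replicate 2, although a replicate 2 summit lay 11 bp away. Of the Notch pathway, 1 of 23 genes had an intergenic summit, E(spl)malpha-BFM, at 24.2 per Mb (0.614 to 135). Its signal value was 898 in the thresholded list, 494 in replicate 2 and 409 in replicate 4. These 3 intervals all include the 29.6 per Mb of all genes.

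Effector genes gave a mixed picture. Cuticle protein genes, which are switched on in turn as each cuticle is laid down, had summits at 7 of 120 (5.83%), led by Cpr49Ah (356), Cpr62Bc (338) and Cpr66Cb (299, unmatched in replicate 4), at 48.6 per Mb (21 to 95.9). Chemosensory receptor and odorant-binding protein genes had them at 14 of 230 (6.09%), with 47.0 per Mb (30.7 to 68.9). Of the 26 summits of this list, 4 stood nearest to Gr93a, 3 to Gr93b and 3 to Gr93d, close together on 3R. A large part of the count thus rests on this locus. The strongest of the list was a summit of 1112 at 2516 bp upstream of Gr93d, a gustatory receptor gene, with 624 in replicate 2 and 504 in replicate 4. It was followed by Or45b, an odorant receptor gene (915), and Gr93b (683). The Gr93b summit was unmatched by overlap in replicate 4, although a replicate 4 summit lay 15 bp away. A nearest start need not be the regulated one.

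The remaining lists held few. Muscle structure genes had 3 of 28 (10.7%), at 38.6 per Mb (7.96 to 113). They were the actin genes Act57B (339.5) and Act87E (337) and Zasp52 (326), a Z-disc gene. The Zasp52 summit was unmatched by overlap in replicate 4, although a replicate 4 summit lay 2 bp away. Axon guidance and cell recognition genes had 3 of 35, the leucine-rich repeat genes trn (299) and caps (175) and the immunoglobulin gene hbs (148), at 19.4 per Mb (3.997 to 56.6). The trn summit had no matched peak by overlap in either replicate list, although replicate summits lay 12 and 7 bp away. Cell death genes had 2 of 13, hid (397, with 83.4 in replicate 2 and 315 in replicate 4) and rpr (182, unmatched in replicate 2), both antagonists of inhibitor-of-apoptosis proteins, at 28.6 per Mb (3.46 to 103). Of 29 humoral immunity genes, PGRP-SA, a sensor of bacterial peptidoglycan, had 2 summits, a density of 77.3 per Mb (9.36 to 279). By overlap, that of 661 was unmatched in replicate 4 and that of 263 in replicate 2. A replicate 4 summit lay 5 bp from the stronger one. The intervals of these 4 lists too include the value of all genes. Of 92 cytosolic ribosomal protein genes, RpL10Aa had a summit of 149, a density of 6.29 per Mb (0.159 to 35.0) whose interval reaches above the 29.6 of all genes. None of the 19 fat body and larval serum genes and none of the 12 clock genes had one, in 0.0203 and 0.0142 Mb of sequence, which is too little to show a low density. The tagged gene itself, CG6276, lay 237 kb from its nearest intergenic summit.

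The DNA under intergenic summits was rich in A and T. Within 100 bp of the summit the median A plus T content was 65.7% (quartiles 60.7 and 69.7), against 56.5% in windows of the same size centred 500 bp to each side. In 881 of 1118 (78.8%, 76.3 to 81.1) the summit window exceeded the mean of its own flanks. The rise was as wide as the summit region: the 25-bp bin just left of the summit had 67.4%, and the bins from 200 to 300 bp away on either side had 53.0 to 54.6%, below the 58.7% at 600 bp. Intronic summits had a median of 64.7% and promoter summits one of 61.7%. The intergenic pooled peaks that missed the threshold had 59.2%, with 53.9% of them above their flanks (52.6 to 55.2). Sequenced fragments can be over- or underrepresented by base content, and no control library was analysed here, so its part in this rise was not tested.

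Of 35 consensus sequences searched on both strands within 100 bp of the summit, 6 were more and 11 less frequent than in the flanks. This was judged by whether the 95% interval of the difference excluded 0. These intervals treat summit and flank windows as independent, although each summit has its own flanks, and are not adjusted for the 35 comparisons. The core CAGTG led the first group, in 507 of 1118 windows (45.3%, 42.5 to 48.3) against 26.9% of flanks, a difference of 18.4 points (15 to 21.9). In windows of 50 bp to each side, which are shorter, it was found in 18.4%. It was present in the summit window and absent from the left flank in 372 cases and the reverse in 160, and for the right flank in 377 and 177. In 36254 windows of the same length spaced every 1000 bases through all eligible sequence it was found in 27.4%. The poly A run AAAAAAA was in 28.1% against 18.4% of flanks, and GATAA, the core of GATA sites, in 37.2% against 29.5%. The forkhead core TAAACA was in 21.8% against 16.5%, and TAATTA, a homeodomain core, in 18.2% against 13.8%. Intronic summit windows had poly A in 35.0%, GATAA in 36.7%, TAAACA in 22.8% and TAATTA in 14.8%. In the evenly spaced windows poly A was in 17.1%, GATAA in 32.9%, TAAACA in 18.6% and TAATTA in 14.1%. The AP-1 site TGANTCA was in 5.01% against 3.58%, a difference of 1.43 points (0.0141 to 3.03), and in 4.71% of intronic summit windows. Apart from CAGTG, these are made mostly of A and T, and the windows were A and T rich. What share of any of these differences, that of CAGTG included, follows from base content was not tested.

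Among the less frequent were GCCAT, the core of Pho sites (25.8% against 36.2%, a difference of -10.5 points, -13.7 to -7.17), CACCC (14.5% against 21.3%) and CCAAT (30.9% against 36.4%). Intronic summit windows had GCCAT in 25.9% and promoter ones in 22.3%. Pho is a DNA-binding protein that recruits Polycomb complexes, and the count of these letters says nothing of whether it binds there. The GAGA core GAGAG, common at fly promoters, was in 22.0% of intergenic windows and 21.9% of their flanks, and in 35.6% of promoter summit windows. The full FTZ-F1 site CAAGGTCA, read by a nuclear receptor of the prepupa, was in none of the 1118, with a Wilson upper bound of 0.342%, against 0.303% of intronic windows. A missing match says only that these letters were not in the window.

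The CAGTG share was next compared with the other classes. Intronic summits had it in 44.2% of windows, 1.11 points lower with an interval of the difference from -2.21 to 4.45, and promoter summits in 39.3%, a difference of 6.07 points (2.56 to 9.59). The intergenic pooled peaks below the threshold had it in 38.4%, 6.91 points lower (3.74 to 10.1). Replicate 2 alone gave 42.1% and replicate 4 alone 47.9%. The share was thus higher above the threshold than below it, and no difference from intronic summits was resolved.

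The core was most frequent to either side of the summit, and there it had a direction. The following ranges and the direction were chosen after the profiles were seen, so the values are descriptions. Within 40 bp of the summit there were 0.974 matches per kb and strand. At 40 to 125 bp, cores that pointed away from the summit, meaning CAGTG on its right and CACTG on its left, numbered 472, or 2.45 per kb. Those that pointed towards it numbered 280, or 1.46 per kb. At 301 to 400 bp the values were 1.02 and 0.827 per kb, so the level at the summit itself was about that of distant sequence. An outward core stood at 40 to 125 bp in 371 summits (33.2%), an inward one in 231 (20.7%), and outward cores on both sides in 72 against 34 for inward.

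**Figure D5:**
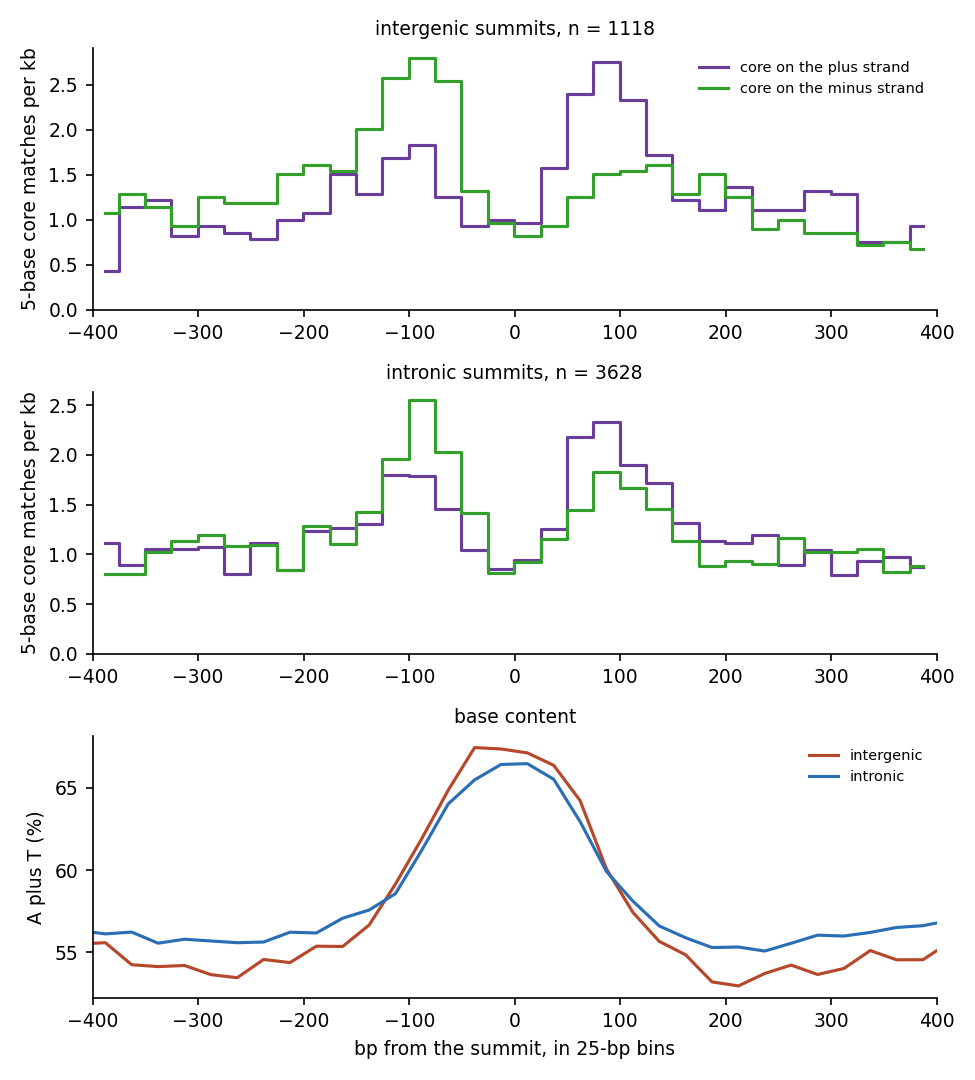
Matches to the 5-base core per kb on the plus and minus strands around intergenic (top) and intronic (middle) summits, and the share of A plus T bases around both (bottom), in 25-bp bins by distance from the summit. Plus-strand matches peak to the right and minus-strand matches to the left, at 40 to 125 bp, with fewer at the summit, where A plus T is highest (67.4% for intergenic summits).

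Outward cores also outnumbered inward ones in each replicate and in introns. The strongest peaks of replicate 2 alone had 390 outward and 233 inward cores at this distance, and those of replicate 4 had 500 and 298. Intronic summits had 2.08 outward and 1.60 inward cores per kb, promoter summits 1.60 and 1.48, and the intergenic pooled peaks below the threshold 1.44 and 1.16. The share of intronic summits with an outward core was 28.1%, so that of intergenic summits was 5.12 points higher (2.04 to 8.28). Among the intergenic summits the share with an outward core was 37.9% in the strongest 224 and 27.4% in the weakest 223. Pairs of cores within 200 bp of a summit pointed apart 260 times and towards each other 224 times. At spacings of 141 to 220 bp the counts were 109 and 52, and at 1 to 80 bp they were 57 and 79. These spacing ranges too were chosen after the counts were seen. Single outward cores were already in excess on both sides of the summit, which by itself places outward pairs at wide spacings. Whether the pairs show any spacing beyond this was not tested. The labels give a sheared size of 200 to 800 bp for the chromatin, and no relation of it to these spacings was tested.

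The bases before the outward cores were mostly T. At 472 such cores, T made up 60.4% of the bases at positions 7 to 2 before the core, against 28.6% at 1108 cores more than 300 bp from the summit. T was at 68.4%, 73.1% and 69.3% at the positions 7, 6 and 5 before the core. Right after it, C or T made up most of the first base (43.9% and 39.6%), and A of the second (58.5%). Because the core lies at the edge of an A and T rich middle, its inner side faces that middle, and what share of the T excess follows from this was not tested. At the same positions A made up 9.75%, against 22.7% at the distant cores.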

How the data were processed

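Peak lists of 2 ChIP-seq libraries (biological replicates 2 and 4) were analysed. The authors deposited, per library, a list of 30000 peaks, a pooled list of the same length, and a list thresholded by the irreproducible discovery rate (IDR) from these. Per the deposited documentation, the pooled list used both alignments. What aligner, caller and IDR threshold the authors used, and the depth, is not known here. The deposited signal value is a score per peak, used only to rank or describe peaks within 1 list. The deposited −log10 q-value was capped and was not used.

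All positions are dm6 and 1-based, and the summit was the deposited start plus the deposited offset. The Release 6 RefSeq sequence and Ensembl release 115 genes matched the lists' build and were used for the 6 arms. Classes in order were promoter (within 500 bp of a start), intergenic, exonic and intronic. Peaks matched when they shared 50% of both lengths, the nearest summit being taken. Shares have 95% Wilson intervals, differences Newcombe intervals and densities exact Poisson intervals. No p-values were computed, since 1 group of 2 libraries allows no test across samples. A planned split of the pass share by signal was void, because the thresholded list is exactly the top of the pooled list by signal.

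Named genes were those nearest to the 20 strongest and the 5 farthest summits, those bounding the 5 stretches with most summits, the 3 on each side of the 500 bp limit, up to 3 per gene list by signal, and CG6276. Other names in the text were chosen after their values were seen. The members, the 15 gene lists (8 symbols unmatched) and the 35 consensus sequences were chosen with earlier results of these data known. Classification, matching and intervals were tested on simulated data with known answers. The alternatives tried were another promoter limit, protein-coding genes only, the stronger 50% of peaks, each replicate alone, joined overlapping peaks, other matching rules, other windows and other gene assignment. Python 3.11.15, numpy 2.4.6, pandas 2.3.3, scipy 1.17.1 and matplotlib 3.10.9 were used.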

Additional observations from a re-analysis of the deposited data

How the results depend on the processing

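Of 68 values recomputed under the alternatives, 36 stayed within the counting interval (for medians, within the SD between the replicates) of the value reported, and counts of genes within 1.5 times. With a promoter limit of 1000 bp the intergenic share was 12.7%, with 27.6 summits per Mb, a pass share of 15.6%, an upstream share of 61.5% and a median distance of 3402 bp. With protein-coding genes and starts only these were 19.04%, 34.7 per Mb and 17.8%, with a median distance of 4336 bp, 703 genes and 65.2% A plus T. In the stronger 50% of peaks (3663) the density was 15.1 per Mb and the pass share 8.22%, both of them lower by construction, the share matched in both lists 67.9%, the median signal 383, the median distance 2538 bp, the number of genes 261 and A plus T 66.2%. Counting overlapping peaks once (6760 left) gave 28.5 per Mb and a pass share of 15.5%. Using each replicate alone (without replicate 2, then without replicate 4), the intergenic share was 16.2% and 13.8%, the density 32.6 and 27.7 per Mb, A plus T 65.2% and 65.7%, and the CAGTG share 47.9% and 42.1%. The median signal and the match in both lists have no value with 1 list. Matching in both lists was 41.2% at 80% of both lengths, 95.9% at 1 bp and 89.8% by a replicate summit within 100 bp, the last chosen after seeing the data. Windows of 50 bp to each side had 68.3% A plus T and CAGTG in 18.4%, in shorter sequence. Flanks centred 1000 bp away, in place of 500 bp, had 58.1% A plus T and CAGTG in 32.0%. Giving each summit to both genes that bound its stretch gave 775 genes. No paired analysis was possible because there was 1 group. Depth is unknown and no control library was analysed, so intervals cover the counting of peaks only.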
